A study of Mus musculus with 18 samples.

Results

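Embryoid bodies (EB) cultured for 7 days were compared with EB cultured for 3 days. EB are floating aggregates that embryonic stem cells (ESC) form when they are kept off an adhesive surface. Samples were chosen by their titles, which gave 3 samples a side, 6 of the 10 samples of the series, on 12 of its 18 arrays. The 7-day EB, the 3-day EB and the ESC all came from 1 line, MES3, grown out of a C57BLxCBA mouse blastocyst. The ESC had been kept on mitomycin-inactivated mouse embryonic fibroblasts with the cytokine LIF. For EB, clusters were excised from undifferentiated colonies into low-adhesion plates, in the same medium without LIF and b-mercaptoethanol, so feeder cells could be carried over with the clusters. The 2 ESC samples entered the fit only to share its estimate of the spread. The other 2 samples, of adult RNA, were not used. The labels do not say whether samples of 1 day were separate cultures, so p-values measure only the spread between these samples, which may be technical.

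In EB an outer layer of visceral endoderm, which secretes the plasma proteins of the early embryo, forms first. An inner epiblast-like layer then loses pluripotency and gives rise to mesoderm. The first blood and vessels of the mouse come from extraembryonic mesoderm that lies against visceral endoderm, and the first red cells carry embryonic globins. The interval between the earlier and the later EB is one in which mesoderm, blood and beating heart tissue are known to appear in mouse EB culture.

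Total RNA was hybridised to single-colour arrays of 2 products, with 2 arrays for each sample. Replicates 1 and 2 of each day and ESC replicate 1 were on the first product (UniSet Mouse 20K I), and replicate 3 of each day and ESC replicate 2 on the second (Mouse Whole Genome). Levels are log2 intensities on the scale of each product, so replicate 3 can be set only against the other replicate 3. Probes above background made up 35.0 to 36.4% on the 7-day arrays of the first product, against 27.8 to 33.4% on the 3-day arrays. On the second product they made up 71.3 to 72.2% on the 7-day arrays and 67.1 to 67.6% on the 3-day arrays. Signal over background thus moved with the day on both products, and its part in the results was not tested. On the second product the file headers give different analysis days for the 7-day and the 3-day arrays, so there the analysis day and the day of culture cannot be told apart. The arrays of ESC replicate 2 correlated with each other at 0.925, against 0.973 to 0.997 for the array pairs of the other 7 samples.

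The samples carried their labelled cell types unevenly. Of the 7 markers of pluripotent cells, 6 had a probe shared by both products, and 5 or 6 of them lay above background in each 7-day, 3-day and ESC sample. Of 6 visceral endoderm markers, 5, 4 and 6 lay above background in 7-day replicates 1, 2 and 3, against 4, 1 and 6 in 3-day replicates 1, 2 and 3, and 1 and 5 in the ESC samples. Of 6 feeder fibroblast markers, 3, 0 and 5 lay above background in the 7-day samples, against 0, 2 and 4 in the 3-day samples and 5 and 6 in ESC. Macrophage markers did not separate the days, and Ptprc, which defines leukocytes, was not above background on any array. In these bulk samples, fewer cells of a type and less RNA per cell cannot be told apart.

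The 3 samples of 7-day EB differed from each other in which lineage genes they carried. Several genes of blood, vessels and the plasma proteins of endoderm were high in replicates 1 and 3 and low in replicate 2, with Pecam1 and Apoe among the exceptions. The clearest were the embryonic globins. Hbb-y encodes the embryonic beta-like globin, with a log2 intensity of 8.60, 2.46 and 11.95 in 7-day replicates 1, 2 and 3, against 1.89, 1.80 and 2.39 in 3-day replicates 1, 2 and 3. Hba-x, the embryonic alpha-like globin, had a log2 intensity of 7.57, 2.23 and 11.12 in the 7-day samples, against 2.05, 2.28 and 2.39 in the 3-day samples. Both lay above background on both arrays of 7-day replicates 1 and 3 and on no array of 7-day replicate 2, of any 3-day sample or of ESC. Relative to the lowest signal above background on the 3-day arrays, Hbb-y was at least 22.3-fold higher in 7-day replicate 1 and at least 239-fold higher in 7-day replicate 3. Hba-x was at least 10.9-fold and at least 135-fold higher in these samples. These genes were named after their values were seen. Neither was tested, because the filter asked for a probe above background on every array of a group.

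The sequence before the start of transcription is shown for both globin genes because both were high in the same samples and at background in the same samples. It is the 250 bases before the RefSeq start on the gene's own strand, build GRCm38.p6, at chr7:103853208-103853457 on the minus strand for Hbb-y and at chr11:32276350-32276599 on the plus strand for Hba-x. Capitals mark the motif GATAA (bound by GATA factors), the motif CCAAT (a promoter box), the motif CACCC (bound by Krüppel-like factors) and the motif TATAAA (the TATA box), each searched on both strands.
Hbb-y: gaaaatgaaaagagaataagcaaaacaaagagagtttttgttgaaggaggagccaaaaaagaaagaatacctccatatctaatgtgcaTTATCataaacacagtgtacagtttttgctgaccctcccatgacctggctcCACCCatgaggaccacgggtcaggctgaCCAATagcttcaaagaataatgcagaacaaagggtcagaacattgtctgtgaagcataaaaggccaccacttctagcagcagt
Hba-x: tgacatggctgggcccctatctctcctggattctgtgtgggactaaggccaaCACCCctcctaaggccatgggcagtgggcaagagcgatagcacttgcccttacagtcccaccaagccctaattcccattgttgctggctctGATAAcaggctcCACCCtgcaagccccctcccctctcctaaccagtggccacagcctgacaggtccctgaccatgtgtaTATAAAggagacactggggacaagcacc
Both windows hold GATAA (written TTATC where it lies on the other strand) and CACCC. The CACCC nearest to the start lies 111 bases before it in Hbb-y and 95 bases before it in Hba-x. GATAA begins 162 and 107 bases before the start. CCAAT was found only in Hbb-y, 83 bases before the start, and TATAAA only in Hba-x, 28 bases before it. Among 32851 RefSeq windows of the same length, 22.6% hold GATAA, 52% CACCC, 33.8% CCAAT and 12.4% TATAAA, so short matches of this kind are common.

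**Figure D1:**
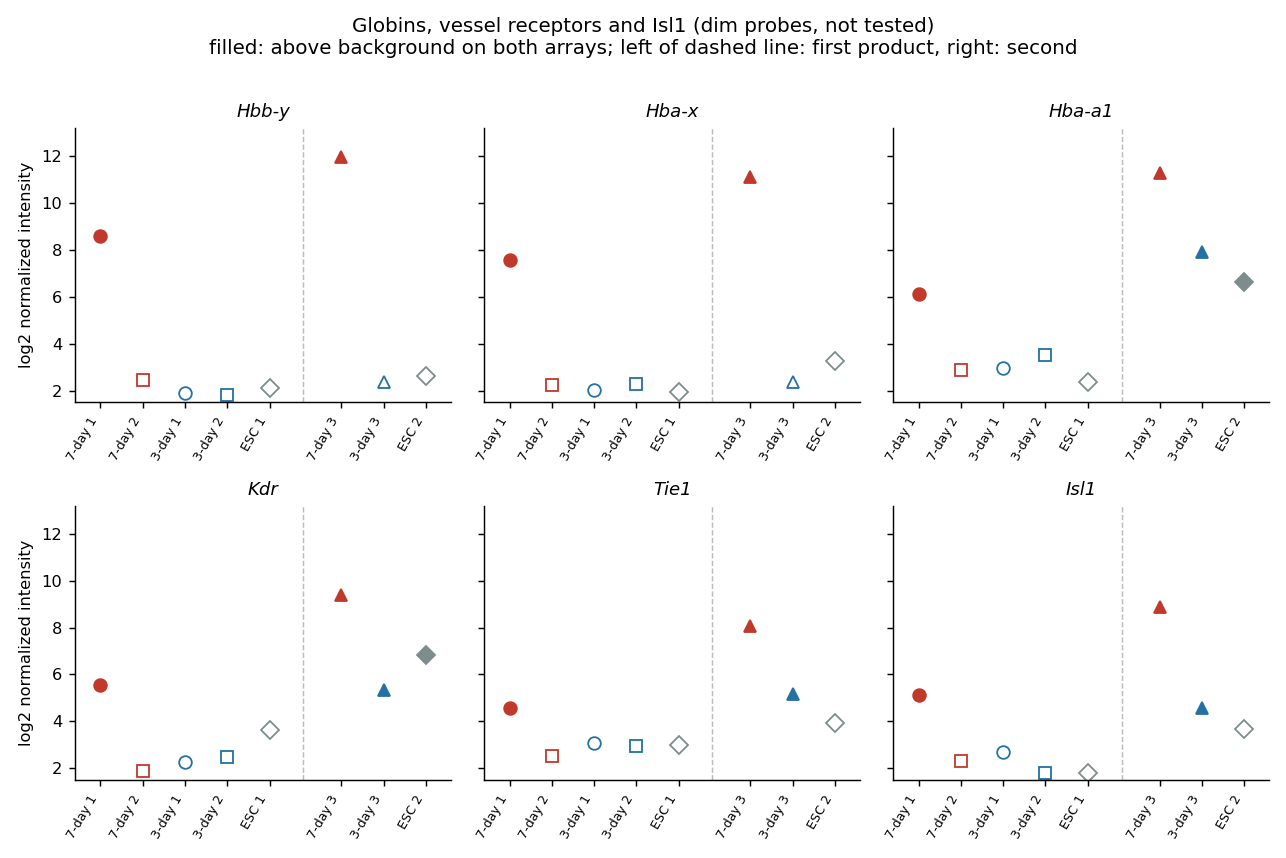
Log2 normalized intensity of 6 genes in each 7-day, 3-day and ESC sample, with the first product left of the dashed line and the second right of it. Each point is the mean of 2 arrays, filled where both lay above background. 7-day replicates 1 and 3 stand above the 3-day samples of their product for every gene shown, while 7-day replicate 2 is open in each panel.

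Some other genes of blood and vessels had the same split. Of 18 listed blood genes 2 were tested, with a median difference of -0.09. Of 16 endothelial genes 3 were tested, 1 of them above 0, with a median of -0.27. Klf1, Epor, Nfe2, Gfi1b, Itga2b, Flt1, Cd34, Emcn, Sox18, Etv2 and Icam2 of these lists did not show the split. They were below background on both arrays of 7-day replicate 1. The adult alpha globin Hba-a1 had a log2 intensity of 6.11, 2.90 and 11.30 in the 7-day samples, against 2.98, 3.50 and 7.93 in the 3-day samples. Kdr, the VEGF receptor of blood and vessel precursors, had a log2 intensity of 5.53, 1.87 and 9.39 in the 7-day samples, against 2.27, 2.48 and 5.35 in the 3-day samples. Tie1, an endothelial receptor, had 4.57, 2.53 and 8.05 in the 7-day samples, against 3.08, 2.93 and 5.14 in the 3-day samples. All 3 genes were below background on every array of 7-day replicate 2 and of 3-day replicates 1 and 2, so these samples have no order. Gata1, the erythroid master regulator, lay above background on no 7-day array of the first product, and had 6.40 in 7-day replicate 3, against 6.32 in 3-day replicate 3. Hbb-bh1 had no named probe. Of 3 endothelial markers, 2, 1 and 2 lay above background in the 7-day samples, against 0, 0 and 2 in the 3-day samples and 0 and 2 in ESC. Of these markers, Pecam1 had 8.90 and Kdr 6.82 in ESC replicate 2, above 7.44 and 5.35 in 3-day replicate 3. Cdh5, which defines mature endothelium, had at most 1 array above background in any sample.

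The split was then counted over all genes. Of the 14353 genes with a named shared probe, 46 were above background and at least 4-fold above both 3-day samples of the product in 7-day replicate 1, 6 did so in 7-day replicate 2, and 200 lay at least 4-fold above the 3-day sample in 7-day replicate 3. Replicates 1 and 3 shared 34 of these, which is 73.9% of the 46 and 17% of the 200. Replicates 2 and 3 shared 1 and replicates 1 and 2 shared 0. In the other direction 2, 0 and 62 genes lay at least 4-fold lower. Of the 34 shared genes, 23 were not above background on any array of 7-day replicate 2, and 21 of the 34 did not pass the filter for testing. They include, besides the globins, Igfbp5 (a binding protein of insulin-like growth factors), Isl1 (a transcription factor of heart progenitors) and Ctsj, a cathepsin of the placenta. Igfbp5 had a log2 intensity of 7.77, 2.51 and 12.02 in the 7-day samples, against 3.77, 2.23 and 7.20 in the 3-day samples. Isl1 had 5.13, 2.29 and 8.87 in the 7-day samples, against 2.71, 1.80 and 4.58 in the 3-day samples. On the first product Isl1 and Igfbp5 were thus above background only in 7-day replicate 1 among the EB samples. These 34 were picked for their values, so the counts are descriptive.

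The place of each sample showed the same thing across the 6291 genes tested. Between 7-day replicate 2 and 3-day replicate 2 the root-mean-square log2 difference was 0.435, with 221 genes at least 2-fold apart. Between 7-day replicate 2 and 3-day replicate 1 it was 0.538, with 413 genes. Between 7-day replicates 1 and 2 it was 0.506, with 319 genes, and between 3-day replicates 1 and 2 it was 0.487, with 264 genes. 7-day replicate 1 lay 0.542 and 0.598 from 3-day replicates 1 and 2, and 7-day replicate 3 lay 0.652 from 3-day replicate 3, with 660 genes at least 2-fold apart. On the first principal component of the 6 EB samples, centred within each product, which held 51.0% of the variance, 7-day replicates 1, 2 and 3 scored -24.10, 1.10 and -23.87, against 11.75, 11.25 and 23.87 for 3-day replicates 1, 2 and 3. With 1 sample of each day on the second product, its pair mirrors itself there by construction. Relative to the mean of the 3-day samples of their product, 178 genes were at least 2-fold different in the same direction in 7-day replicates 1 and 3. Of these, 31 were also 2-fold different in that direction in replicate 2, and 55 went the other way there. 7-day replicate 2 is thus a sample titled as 7-day that lies nearer to 3-day replicate 2 than to 7-day replicate 1. It lies farther from 3-day replicate 1 than from 7-day replicate 1. The counts of calls below are given without 7-day replicate 2 too where they differ from those with it. Why it stands apart was not tested.

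**Figure D2:**
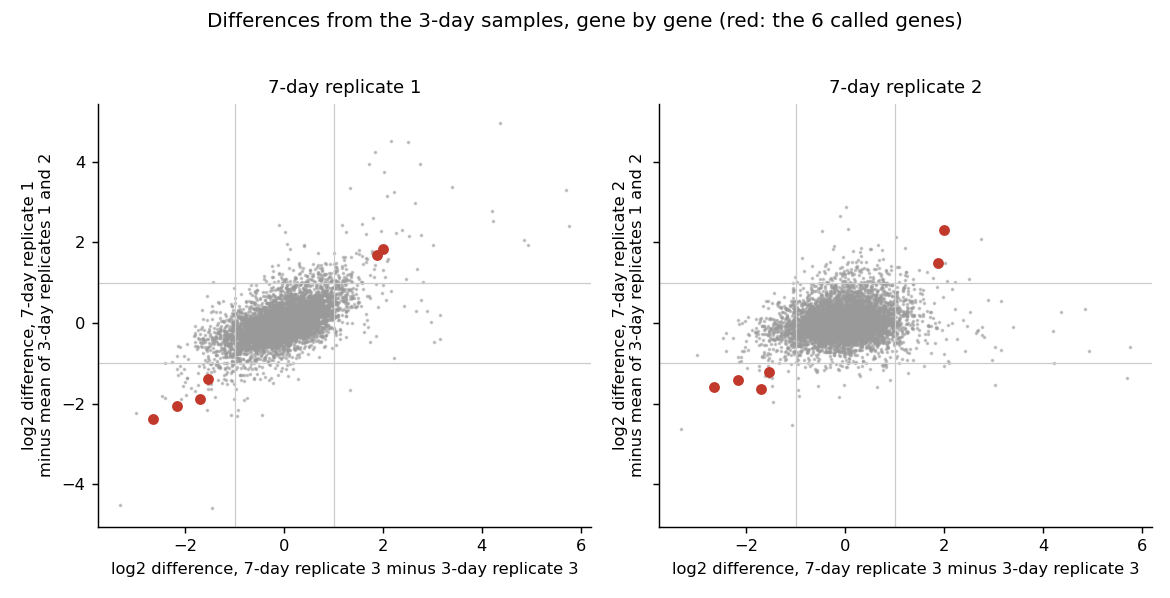
Log2 difference from the 3-day samples for each tested gene, with 7-day replicate 3 on the horizontal axis and 7-day replicate 1 (left panel) or 2 (right panel) on the vertical axis. Grey lines mark a 2-fold difference and red points the 6 called genes, which lie past the same grey lines in both panels.

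With all 3 samples a side, 6 genes passed, which is 0.0954% of the 6291 tested, 2 higher (0.0318%) and 4 lower (0.0636%) (limma, Benjamini-Hochberg adjusted p under 0.05, adjusted p = 0.0492 for each of the 6). Before adjustment, 929 genes (14.8%) had a p under 0.05, 444 higher and 485 lower, where 315 would come by chance. These 6 are genes on which 7-day replicate 2 went with replicates 1 and 3. Among all 6291 genes tested, the days did not overlap within products in 869 (13.8%) as higher and 1065 (16.9%) as lower.

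Pecam1 and Lims2 rose. Pecam1, an adhesion molecule of endothelium and platelets that mouse ESC also carry, had a log2 intensity of 4.50, 4.96 and 9.44 in the 7-day samples, against 2.39, 2.92 and 7.44 in the 3-day samples. It was higher by a log2 of 2.05 ± 0.25 (SE, n = 3 each). Lims2, an adaptor protein of focal adhesions, had a log2 intensity of 4.41, 4.20 and 7.82 in the 7-day samples, against 2.78, 2.66 and 5.95 in the 3-day samples. It was higher by 1.68 ± 0.21 on the log2 scale. Every 7-day sample lay above the 3-day samples of its product for both genes. On the first product both genes were below background on all 3-day arrays, so the size of the difference there cannot be taken as exact, and both passed the filter only through the 7-day samples, where they are high. Among probes above background on every EB array, which leaves both genes out, 0 genes passed as higher and 3 as lower.

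Fgfbp1, Plcd4, Trh and Dcxr fell. Fgfbp1, a secreted carrier that releases FGF ligands from the matrix, had a log2 intensity of 3.09, 3.90 and 6.84 in the 7-day samples, against 5.76, 5.21 and 9.50 in the 3-day samples. It fell by 2.21 ± 0.28 on the log2 scale. Its 7-day levels were near background on the first product, where 1 of 4 arrays lay above it. In the ESC samples it had 2.55 and 5.75, below every 3-day sample of the same product. Trh, which encodes the precursor of thyrotropin-releasing hormone, had a log2 intensity of 5.67, 5.93 and 8.96 in the 7-day samples, against 7.56, 7.55 and 10.66 in the 3-day samples, and fell by 1.74 ± 0.21. Plcd4, a phospholipase C of the delta class, had 3.84, 4.48 and 5.80 in the 7-day samples, against 6.18, 5.59 and 7.96 in the 3-day samples, and fell by 1.88 ± 0.24. Dcxr, a reductase of dicarbonyls and xylulose, had 4.78, 4.95 and 9.79 in the 7-day samples, against 6.14, 6.18 and 11.32 in the 3-day samples, and fell by 1.37 ± 0.17. Trh and Dcxr were above background on every EB array and passed among such probes too, while Fgfbp1 and Plcd4 passed the filter only through 3-day samples. For these 4 genes the days did not overlap on either product, and 3-day EB were also above ESC.

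**Figure D3:**
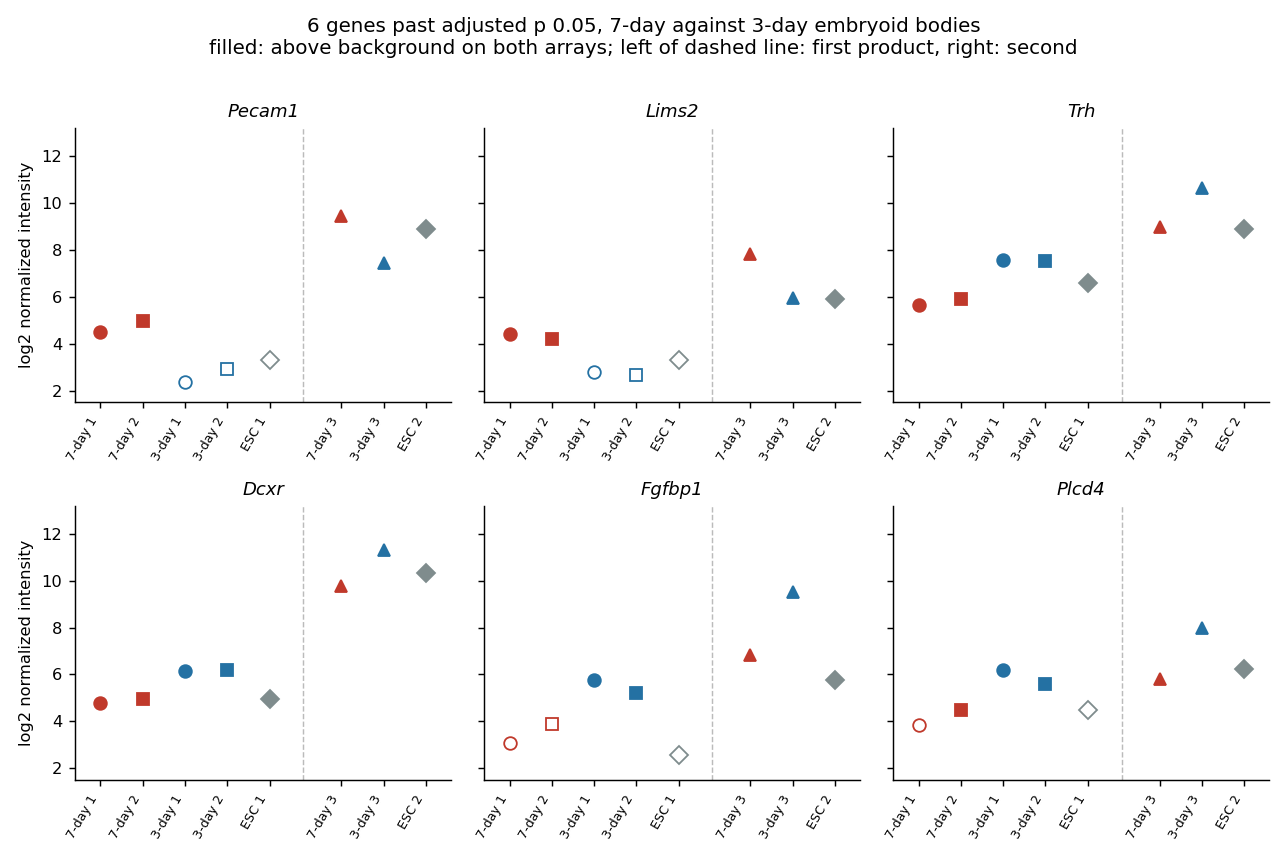
Log2 normalized intensity of the 6 called genes in each 7-day, 3-day and ESC sample, first product left of the dashed line and second product right of it. Points are means of 2 arrays, filled where both lay above background. 7-day samples lie above the 3-day samples of their product for Pecam1 and Lims2 and below them for the other 4 genes.

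The 6 calls sat close to the threshold. Of 22 alternative settings with a test, 17 called 0 genes, with 440 to 1685 genes at an unadjusted p under 0.05, and 5 called some. The differences themselves moved little: over all settings Pecam1 lay between 1.87 and 2.23 on the log2 scale and Fgfbp1 between -2.66 and -1.97.

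Without 7-day replicate 2, a setting chosen with its position known, 122 genes passed, which is 1.94% of the 6291 genes tested, 64 higher (1.02%) and 58 lower (0.922%), and all 6 genes above were among them. When the filter was applied again to the remaining arrays, 201 of 6681 genes passed (3.01%), 132 higher (1.98%) and 69 lower (1.03%). Hbb-y, Hba-x and Kdr entered that second fit only through the 7-day samples in which they are high. The 7-day sample in which they are low had been left out, so their calls there are no support. Calls of other genes that only the second filter let in are no support either. For Hbb-y and Hba-x the folds are the bounds given above. Kdr was at least 2.65-fold higher in 7-day replicate 1, relative to the lowest signal above background on the 3-day arrays. In 7-day replicate 3 it was 16.5-fold higher than in 3-day replicate 3, where it was above background. The setting rests on 7-day replicates 1 and 3, and leaves 1 sample of 7-day EB on each product, each assumed to vary like the other groups.

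The next genes by p did not pass. On the higher side they include Itgb5, an integrin subunit, with a log2 intensity of 5.06, 4.40 and 10.62 in the 7-day samples, against 3.26, 3.28 and 8.85 in the 3-day samples (1.56 ± 0.22, adjusted p = 0.0598). Klhl13, an adaptor of ubiquitin ligases, differed by 1.25 ± 0.19 (adjusted p = 0.0817). Ctnnb1, which encodes beta-catenin of cell junctions and Wnt signalling, differed by 1.51 ± 0.28 (adjusted p = 0.142). Rell1 and Glg1 had differences of 1.17 and 1.10. On the lower side Crym, a thyroid hormone-binding crystallin, had a log2 intensity of 4.72, 5.40 and 8.81 in the 7-day samples, against 6.48, 6.54 and 10.79 in the 3-day samples (-1.63 ± 0.22, adjusted p = 0.0598). Crym thus showed no overlap between the days on either product, as did Itgb5. Crym was above background on every EB array. On the first product Itgb5 and Rell1 were below background on all 3-day arrays, and Ctnnb1 on those of 3-day replicate 1. Itgb5, Rell1 and Ctnnb1 passed the filter only through the 7-day samples, where they are high, so the size of their differences cannot be taken as exact. Differences of -1.51 for Olfr806, -1.14 for Akr1b10, a carbonyl reductase, and -1.35 for Hspe1, a mitochondrial chaperonin, followed. The fatty acid enzymes Slc27a2 and Acot1 had differences of -1.60 and -0.90.

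Gene lists for the lineages and pathways of EB culture were set beside these genes. Over all genes tested, 7.06% were higher and 7.71% lower at an unadjusted p under 0.05, and the median difference was -0.03 on the log2 scale. A lack of overlap between the days, given for some genes below, held for 13.8% of all genes tested as higher and 16.9% as lower. No set test was made. Counts below without 7-day replicate 2 stand beside 1.02% higher and 0.922% lower over all genes tested. With the filter applied again these shares were 1.98% and 1.03%. Calls of members that only this second filter let in are no support, as for Hbb-y, Hba-x and Kdr above. Sox2, Rhox6, Apoa1, Fgb and Igf2 passed the first filter only through the 7-day samples, where they are high. Their calls without 7-day replicate 2 are thus no support either. 2 members of lists passed the adjusted threshold, Pecam1 and Fgfbp1.

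Plasma protein genes of visceral endoderm had the highest median of the lists with at least 5 tested members. Of 23 genes, 20 had a named probe and 10 were tested. None passed, 5 were higher at an unadjusted p under 0.05, 0 lower, and 9 of 10 differences were above 0. The median difference was 1.74 on the log2 scale, and by sample it was 3.19, 0.51 and 1.53 in 7-day replicates 1, 2 and 3. Apoa1, the main protein of HDL, had a log2 intensity of 7.57, 5.31 and 10.96 in the 7-day samples, against 4.84, 2.82 and 8.93 in the 3-day samples (2.42 ± 0.65, adjusted p = 0.212). Fgb, the fibrinogen beta chain, had 7.03, 4.78 and 10.56 in the 7-day samples, against 4.67, 2.89 and 8.33 in the 3-day samples (2.16 ± 0.61, adjusted p = 0.219). For both genes the days did not overlap, with the lowest 7-day value of the first product close above the highest 3-day value. Both, like Ttr, passed the filter only through the 7-day samples, where they are high, so the filter had a part in the median. Untested members with a shared probe went both ways on the second product. Apoa2 had 7.65 in 7-day replicate 3, against 8.64 in 3-day replicate 3, and Amn 7.64, against 8.69. Habp2 and Apoa4 lay lower too, while Afp, Apom, Trf and Fgg lay higher.

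For Ttr, the thyroxine carrier transthyretin, the days did overlap. It had 8.26, 4.58 and 12.47 in the 7-day samples, against 6.05, 2.57 and 10.74 in the 3-day samples (1.98 ± 1.14, adjusted p = 0.436). Apoe, a lipid carrier, differed by 0.71 ± 0.27 (adjusted p = 0.303) and Rbp4, the retinol carrier, by 1.72 ± 0.73 (adjusted p = 0.328). Spink1 and Apoc2, named after their values were seen, differed by 2.51 and 1.75. On the first product 7-day replicate 2 lay above 3-day replicate 1 in 3 of the 10 genes and above 3-day replicate 2 in 9 of 10, while 3-day replicate 1 lay above 3-day replicate 2 in 9 of 10. The 3-day samples of the first product thus differed from each other in these genes as the 7-day samples did. Without 7-day replicate 2, Apoa1, Fgb and Rbp4 passed with the same genes tested, and Apom too when the filter was applied again. Apom entered that second fit only through the 7-day samples where it is high, so its call is no support. The calls of Apoa1 and Fgb are no support either, because they too passed the filter only through 7-day samples.

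**Figure D4:**
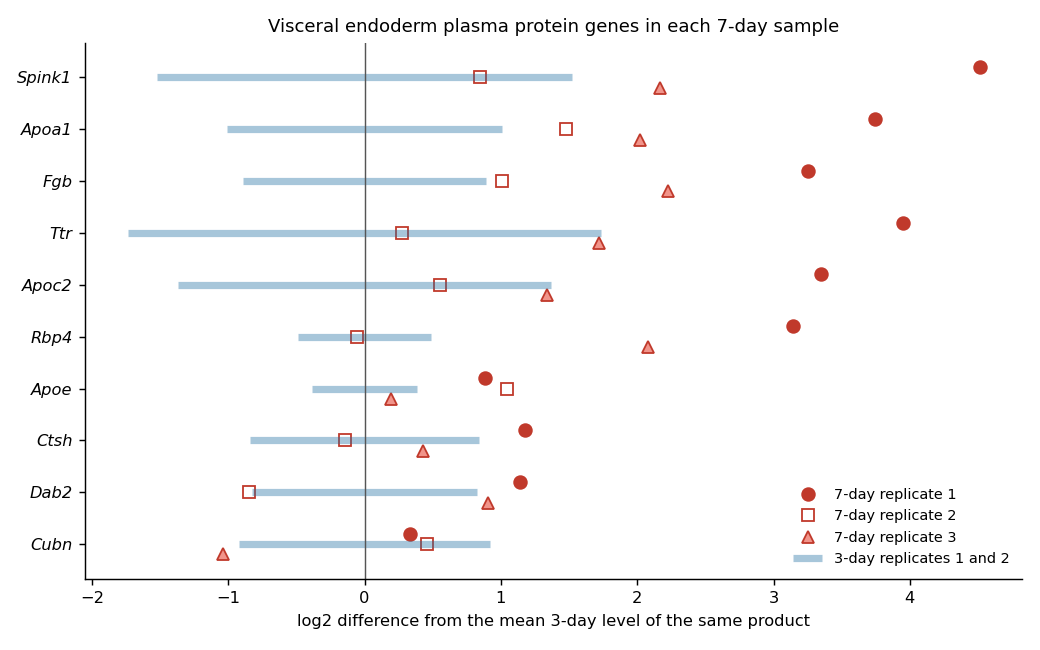
Log2 difference of each 7-day sample from the mean 3-day level of its product for the 10 tested plasma protein genes of visceral endoderm, ordered by the fitted difference. The blue bar spans 3-day replicates 1 and 2 around their mean, and 3-day replicate 3 lies at 0 as the only 3-day sample of its product. Open squares of 7-day replicate 2 fall within the bar for 6 of the 10 genes, while filled circles of replicate 1 reach 4.51 for Spink1.

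Regulators of endoderm were mostly too dim to test. Of 16 such genes, 3 were tested and none had an unadjusted p under 0.05. Gata4 had a log2 intensity of 4.44, 4.05 and 7.29 in the 7-day samples, against 4.38, 4.64 and 6.87 in the 3-day samples (-0.04 ± 0.25, adjusted p = 0.953). Foxa2 and Gata6, other endoderm transcription factors, were below background on most arrays of the first product. On the second product Gata6 had 8.64 in 7-day replicate 3, against 7.45 in 3-day replicate 3. Sox17 had 10.13 in 7-day replicate 3, against 9.34 in 3-day replicate 3, and no usable value on the first product. Afp, the fetal plasma protein of visceral endoderm, had 4.39, 3.55 and 8.86 in the 7-day samples, against 2.50, 2.39 and 6.89 in the 3-day samples. It lay above background on 2, 1 and 2 arrays of the 7-day samples, against 0, 0 and 2 arrays of the 3-day samples.

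The Rhox homeobox genes are an X-linked cluster expressed in extraembryonic tissue and germ cells, and 2 of them, Rhox6 and Rhox5, were higher in every 7-day sample than in the 3-day samples of its product. Rhox6 had a log2 intensity of 7.71, 5.86 and 10.78 in the 7-day samples, against 4.44, 3.10 and 8.02 in the 3-day samples (2.93 ± 0.50, adjusted p = 0.127). Rhox5 had 7.87, 8.61 and 11.90 in the 7-day samples, against 7.03, 6.52 and 11.39 in the 3-day samples (1.15 ± 0.29, adjusted p = 0.187). Neither passed, and both were the only tested members of 14 listed, of which 4 had a named probe. Other members went both ways on the second product. Rhox13 had 8.79 in 7-day replicate 3, against 9.56 in 3-day replicate 3, and Rhox2a had 4.41, against 4.84. Rhox4b had 7.25 in 7-day replicate 3, against 6.14 in 3-day replicate 3. Rhox12 had 4.61, against 2.60 in 3-day replicate 3, where it was below background. Rhox6 passed without 7-day replicate 2, but it entered the test only through the 7-day samples, where it is high, so its call is no support. In ESC, Rhox6 had 2.15 and 5.60, so its order was 7-day, 3-day and ESC on both products, with 3-day replicate 2 and ESC replicate 1 below background.

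Imprinted genes included several of the larger differences. Of 22 genes, 14 were tested, none passed, 5 were higher and 0 lower at an unadjusted p under 0.05, and the median was 0.56, at 0.76, -0.06 and 0.77 in 7-day replicates 1, 2 and 3. Igf2, the paternally expressed fetal growth factor, had a log2 intensity of 9.62, 6.23 and 14.09 in the 7-day samples, against 6.36, 3.90 and 11.58 in the 3-day samples (2.70 ± 0.90, adjusted p = 0.26). Cdkn1c, a cell cycle inhibitor, had 7.22, 5.13 and 9.56 in the 7-day samples, against 4.46, 4.79 and 7.77 in the 3-day samples (1.63 ± 0.45, adjusted p = 0.219). Igf2r, the receptor that clears IGF2, differed by 0.97 ± 0.29 (adjusted p = 0.234). H19, the noncoding RNA of the Igf2 locus, was not tested, with 4.34, 3.09 and 11.57 in the 7-day samples, against 2.42, 1.95 and 10.44 in the 3-day samples.
Of these genes, Cdkn1c and Igf2r showed no overlap between the days, while 7-day replicate 2 lay below 3-day replicate 1 for Igf2. Mest and Dlk1, named after their values were seen, differed by 1.61 and 2.26. Mest had 7.50, 5.23 and 11.47 in the 7-day samples, against 5.24, 5.41 and 8.71 in the 3-day samples. Without 7-day replicate 2 and with the filter applied again, 5 of 15 imprinted genes passed, all higher, namely Mest, Cdkn1c, Igf2, Igf2r and Dlk1. Igf2 entered the test only through the 7-day samples, where it is high, so its call is no support.

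FGF signalling drives the exit from naive pluripotency, and Sprouty and dual-specificity phosphatase genes are its feedback inhibitors and report its activity. This was the list with the lowest median, -0.59 on the log2 scale, at -0.85, -0.83 and -0.74 in 7-day replicates 1, 2 and 3. Of 19 genes 5 were tested: Fgfbp1 passed, and 4, Fgfbp1 included, were lower at an unadjusted p under 0.05. Spry2 had a log2 intensity of 3.52, 3.49 and 6.04 in the 7-day samples, against 4.67, 4.14 and 6.87 in the 3-day samples (-0.87 ± 0.19, adjusted p = 0.154). Dusp6, the cytoplasmic ERK phosphatase, had 4.14, 3.95 and 7.72 in the 7-day samples, against 4.50, 4.45 and 8.47 in the 3-day samples (-0.54 ± 0.19, adjusted p = 0.272). Spry1 had 5.50, 5.52 and 10.97 in the 7-day samples, against 6.52, 6.18 and 11.06 in the 3-day samples (-0.59 ± 0.22, adjusted p = 0.29). These 3 genes lay lower in every 7-day sample than in the 3-day samples of its product. The fifth, Dusp4, lay on the other side of 0 (0.36 ± 0.19, adjusted p = 0.394). Fgf8, a ligand, and the receptor Fgfr1, named after their values were seen, did not pass the filter for testing and lay on the other side. Fgf8 had a log2 intensity of 4.44, 2.75 and 8.18 in the 7-day samples, against 2.43, 2.56 and 6.29 in the 3-day samples. Fgfr1 had 4.08, 3.46 and 9.71 in the 7-day samples, against 2.42, 2.74 and 8.71 in the 3-day samples. Both were below background in 7-day replicate 2. With 7-day replicate 2 left out, 0 of the 5 genes passed as higher and 1 as lower, and with the filter applied again, which let in Fgf8 and Fgfr1, 2 of 7 passed as higher and 1 as lower. Fgf8 and Fgfr1 were let in only through the 7-day samples where they are high, so their calls are no support. With no filter on dim probes the median of all measured list genes was 0.19, so the direction holds only for the members that the filter let in.

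BMP signalling induces mesoderm and extraembryonic tissue, and Id and Msx genes are its direct targets. Of 19 listed genes 5 were tested, none passed, and 2 were higher at an unadjusted p under 0.05. Id2 had a log2 intensity of 6.40, 4.77 and 10.51 in the 7-day samples, against 4.29, 3.64 and 9.34 in the 3-day samples (1.47 ± 0.44, adjusted p = 0.234). Msx2 had 7.49, 4.28 and 10.73 in the 7-day samples, against 4.69, 4.36 and 8.09 in the 3-day samples (1.79 ± 0.72, adjusted p = 0.31). The days did not overlap for Id2, while 7-day replicate 2 lay below both 3-day samples for Msx2. Bmp4, the ligand, differed by 0.68 ± 0.36 (adjusted p = 0.396). Members that were not tested went both ways on the second product. Id1 had 8.73 in 7-day replicate 3, against 9.90 in 3-day replicate 3, and Id4 had 4.723, against 6.075. Bmp7 lay lower there too, while Bmp2, Smad6, Smad7, Grem1, Tgfb1 and Tgfb2 lay higher. When 7-day replicate 2 was left out, 2 of the 5 passed, both higher, and with the filter applied again 4 of 9, namely Id2, Bambi, Msx1 and Msx2. Of these, Bambi and Msx1 entered only through the 7-day samples where they are high, so their calls are no support.

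Genes of the primitive streak and early mesoderm were near background. Of 16 genes 5 were tested, and 1 was lower at an unadjusted p under 0.05: Tcf15, a regulator of somites and of the exit from naive pluripotency, with 3.07, 4.23 and 7.67 in the 7-day samples, against 4.16, 5.68 and 10.09 in the 3-day samples (-1.65 ± 0.50, adjusted p = 0.243). T, the streak marker brachyury, was not tested, with 3.95, 3.50 and 6.96 in the 7-day samples, against 3.23, 3.87 and 6.51 in the 3-day samples. For both genes the days overlapped on the first product. Leaving out 7-day replicate 2, 0 of the 5 passed, and with the filter applied again 1 of 7, Fgf8, higher. Its call is no support, because it entered only through the 7-day samples where it is high. Mixl1 and Mesp1, other streak markers from the marker list, lay above background only on the arrays of 7-day replicate 3 among the EB samples.

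Heart genes were measured in part. Of 24 listed, 5 were tested and none passed. Myl7, the atrial myosin light chain, had a log2 intensity of 7.03, 6.02 and 10.85 in the 7-day samples, against 5.68, 5.81 and 9.78 in the 3-day samples (0.88 ± 0.26, adjusted p = 0.234), with no overlap between the days. Acta2, a smooth muscle actin also found in early heart and in fibroblasts, had 7.86, 3.51 and 12.15 in the 7-day samples, against 4.95, 2.30 and 10.32 in the 3-day samples (1.99 ± 1.12, adjusted p = 0.429). Of the 5, 1 passed as higher without 7-day replicate 2, and with the filter applied again 2 of 9, Isl1 and Myl7. Isl1 entered that second fit only through the 7-day samples where it is high, so its call is no support. Tnnt2, the cardiac troponin, was not above background on any array. No neural gene passed: of 4 tested, Pax3, of neural crest and somites, differed by -0.61 ± 0.22 (adjusted p = 0.284), and Pax6, which has a probe on the second product only, had 5.73 in 7-day replicate 3, against 5.01 in 3-day replicate 3.

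Pluripotency genes had differences of both signs. Of 16 core genes 11 were tested, none passed, 2 were higher and 1 lower at an unadjusted p under 0.05, and the median was -0.07. Pou5f1, which encodes OCT4, had a log2 intensity of 7.86, 9.03 and 12.12 in the 7-day samples, against 8.40, 8.32 and 12.30 in the 3-day samples (0.00 ± 0.28, adjusted p = 0.997). Nanog, with a probe on the second product only, had 12.43 in 7-day replicate 3, against 12.78 in 3-day replicate 3. Sox2 had 4.01, 4.90 and 10.81 in the 7-day samples, against 2.74, 2.78 and 9.78 in the 3-day samples (1.47 ± 0.29, adjusted p = 0.142). Sall4 differed by 0.70 ± 0.16 (adjusted p = 0.178) and Dppa4, an epigenetic factor of early embryos, by -0.91 ± 0.24 (adjusted p = 0.211). Sox2 passed as higher, and Dppa4 and Utf1 as lower, when 7-day replicate 2 was left out. Sox2 entered the test only through the 7-day samples, where it is high, so its call is no support. The days did not overlap for Sox2, which was below background on the 3-day arrays of the first product.

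In the naive list, which covers the ground state of ESC, 11 of 16 genes were tested and none passed. Its median was 0.19, at -0.19, 0.60 and -0.30 in 7-day replicates 1, 2 and 3, so replicate 2 was higher than the 3-day mean and the others lower. On the first product 7-day replicate 2 lay above 3-day replicate 1 in 11 of 11 genes, and 7-day replicate 1 lay above 7-day replicate 2 in 0 of 11. Zfp42, which encodes REX1, had 5.86, 7.30 and 11.54 in the 7-day samples, against 5.04, 6.33 and 12.42 in the 3-day samples (0.30 ± 0.57, adjusted p = 0.828). Dppa3, of germ cells and naive ESC, differed by -0.65 ± 0.43 (adjusted p = 0.498) and Tex19.1, a repressor of transposons, by -0.64 ± 0.28 (adjusted p = 0.337). Without 7-day replicate 2 and with the filter applied again, Dppa3 passed, with a log2 difference of -1.22 ± 0.25 (adjusted p = 0.048), while over all its alternatives the adjusted p ran up to 0.923.

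Glycolysis and hypoxia genes were among the lists in which all 3 samples went one way. Of 23 genes 18 were tested, none passed, 6 were higher and 1 lower at an unadjusted p under 0.05, and 15 of 18 differences were above 0. The median was 0.52, at 0.43, 0.56 and 0.29 in 7-day replicates 1, 2 and 3. Bnip3, a mitophagy receptor induced by hypoxia, had a log2 intensity of 7.23, 7.42 and 11.75 in the 7-day samples, against 6.16, 6.69 and 10.92 in the 3-day samples (0.87 ± 0.19, adjusted p = 0.154). Ndrg1, another hypoxia target, differed by 1.25 ± 0.28 (adjusted p = 0.154) and Pgk1, a glycolytic kinase, by 0.64 ± 0.17 (adjusted p = 0.213). The glucose transporter Slc2a1, named after its values were seen, went the other way, with 8.03, 7.39 and 9.26 in the 7-day samples, against 8.58, 8.05 and 10.48 in the 3-day samples (-0.81 ± 0.25, adjusted p = 0.251). In each of these 4 genes the days did not overlap. With median centring in place of quantile normalization the median of the list was 0.28.

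**Figure D5:**
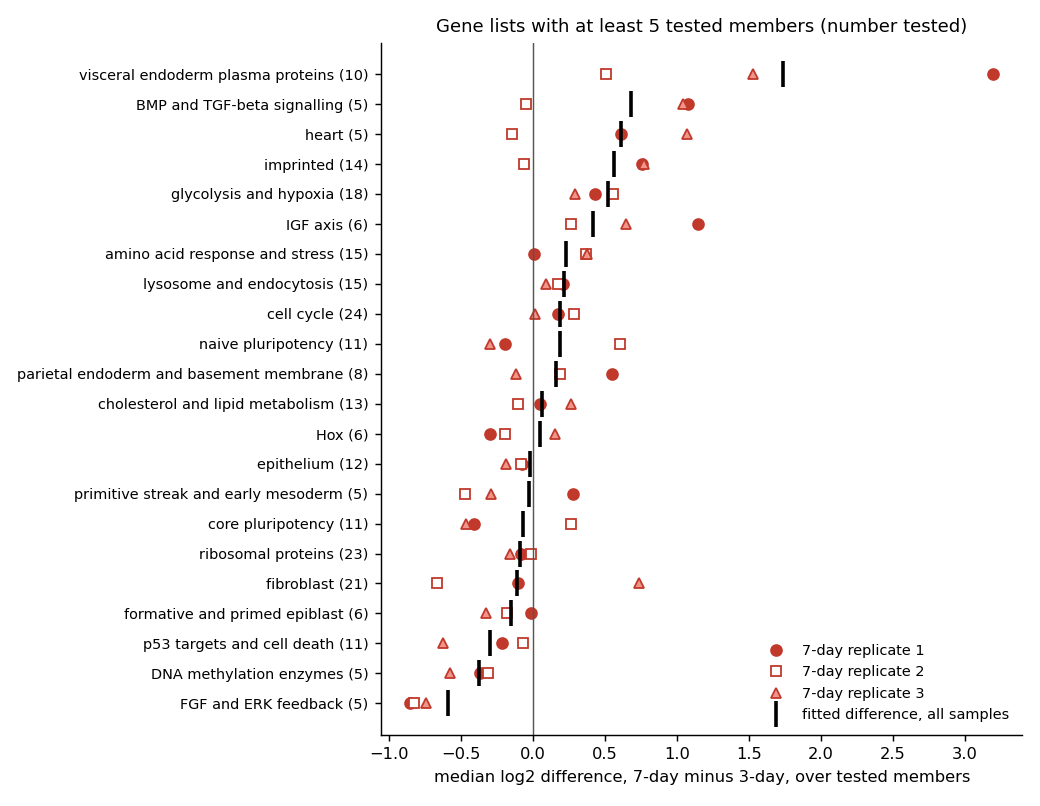
Median log2 difference between 7-day and 3-day EB over the tested members of each gene list with at least 5, by 7-day sample (symbols) and in the fit over all samples (black bars). The endoderm list has the highest fitted median, 1.74, and the FGF list the lowest, -0.59, with the 3 samples far apart in the first and close together in the second.

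The cell cycle list had 24 tested genes, of which 4 were higher and 0 lower at an unadjusted p under 0.05, with a median of 0.19. Mcm6 and Mcm7, subunits of the replicative helicase, differed by 0.76 ± 0.23 (adjusted p = 0.244) and 1.45 ± 0.54 (adjusted p = 0.294). Of 11 p53 and cell death genes tested, 3 were lower and 1 higher: Pmaip1, Phlda3 and Ccng1 differed by -0.82, -0.64 and -0.60, and Trp53 itself, named after its values were seen, by 0.86. Of 5 DNA methylation genes, Gadd45a and the methyltransferase Dnmt3a differed by -0.79 and -0.72 (adjusted p = 0.272 and 0.33). Hoxb6 and Hoxb3 differed by -0.67 and -0.56 in a list of 6 tested Hox genes, of which 4 lay above 0. Krt7, a keratin of simple epithelium and trophoblast, differed by 1.01 ± 0.25 (adjusted p = 0.186), with no overlap between the days. None of these genes passed with all samples, and Krt7 passed without 7-day replicate 2.

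Fibroblast genes are given because feeder cells may have come with the colonies. Of 28 genes 21 were tested and none passed, with a median of -0.11, at -0.10, -0.66 and 0.74 in 7-day replicates 1, 2 and 3. Leaving out 1 sample at a time put that median between -0.29 and 0.51, so its sign rests on single samples. The collagen gene Col3a1 had a log2 intensity of 6.57, 1.92 and 9.29 in the 7-day samples, against 1.86, 4.69 and 3.59 in the 3-day samples and 8.27 and 9.74 in ESC (2.55 ± 1.37, adjusted p = 0.409). Col3a1 was thus high in 7-day replicates 1 and 3, at background in 7-day replicate 2, and higher in 3-day replicate 2 than in 3-day replicate 1. S100a4, which marks fibroblasts, was not: it had 3.00, 3.83 and 6.63 in the 7-day samples, against 3.41, 5.57 and 6.86 in the 3-day samples and 9.33 and 12.01 in ESC. The log2 of the summed intensity of the 6 feeder markers was 7.29, 5.37 and 10.75 in the 7-day samples, against 5.25, 6.83 and 9.44 in the 3-day samples and 10.15 and 13.54 in ESC. Among the 21 fibroblast genes 3 passed without 7-day replicate 2, all higher, and with the filter applied again 5 of 22, namely Col3a1, Col1a1, Fbn1, Col5a2 and Col5a1. Col1a1 entered that last fit only through the 7-day samples where it is high, so its call is no support. In that last fit Col6a2, Col6a3 and Col6a1, other collagen genes, had differences of -0.65, -0.03 and 0.09 and did not pass. Some fibroblast genes were thus high in the same 7-day samples as the globin and vessel genes, and the part of feeder cells in those results was not tested. Timp2, a matrix protease inhibitor, differed by -0.97 ± 0.26 (adjusted p = 0.211), and Col5a1, Twist1 and Pdgfrb by 0.99, 0.77 and 1.05. S100a4 and Pdgfrb were named after their values were seen.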

How the data were processed

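Per the file headers, version 4.1.0.29054 of the scanner's software wrote the deposited exports, with 1 intensity for every spot. Its values below 0 show that background had been subtracted before deposit. A further deposited column holds the authors' median-normalized intensity. From the raw column, spots carrying the flags M, C or I were dropped. Values were quantile-normalized within each product (all ESC and EB arrays), raised to the median normalized negative control (3.49 on the first product, 5.23 on the second) and put on the log2 scale. The authors deposited no log2 values that were used here. The 2 arrays of a sample, which share the first number of the title, were averaged. Of 19758 shared gene probes, 15838 had 1 symbol (14353 genes), 3862 none and 58 several. Kept probes were flagged as above background (G or S) on all arrays of the 7-day, the 3-day or the ESC group, and the brightest probe stood for a gene. This left 6291 genes, 5689 of them named.

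Differences, 7-day minus 3-day, came from limma 3.58.1 under R 4.3.3 (a linear model with moderated variances, 8 samples, product as a term, 4 residual degrees of freedom, a prior worth 4.26), with Benjamini-Hochberg adjustment over the 6291 genes. Precision is limited by the number of arrays. The code was tested on simulated data. Named genes are, per direction, up to 12 genes with a symbol (called ones first, then by smallest p), each list's called members and up to 3 further tested members by p, and 21 lineage genes; the text leaves some out, and says where it names others. The members and the 32 lists (582 genes, 64 with no shared named probe) were chosen with earlier results of these data known. Alternatives covered normalization, floor, filter, samples, pairing, header analysis day, arrays as values, probes, flagged spots and product. The adult arrays and the deposited matrices were not used; in the matrix of the series the values of the second product stand beside other probes' names. Promoter sequences are from RefSeq, build GRCm38.p6.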

Additional observations from a re-analysis of the deposited data

How the results depend on the processing

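The 6 calls rest on the setting. Under each of median centring, the authors' normalized column, a halved or doubled floor, no filter on dim probes, the EB samples alone, the header analysis day as a term, every probe on its own, flagged spots kept and the first product alone, limma called 0 genes, with 533 to 1685 at an unadjusted p under 0.05. Probes above background on every EB array gave 3 calls, 0 higher and 3 lower, 2 of them among the 6, and each array as a value with its sample as a random block gave 182. With 1 sample left out the count ran between 0 and 122. It was 122 without 7-day replicate 2, and 201 with the filter then applied again, an alternative chosen after seeing the data. The other 7 omissions gave 0 (440 to 1026 at an unadjusted p under 0.05), with fewer samples in the fit. Other causes were not tested. The ESC omissions repeat the fit of the EB samples alone (1026 genes at an unadjusted p under 0.05 in each). The analysis day repeats the fit without 7-day replicate 3 (636 in each). The replicate block, which pairs samples by number, gave 13 calls, 3 of them among the 6. The deviations of replicates 1 and 2 correlated between the days at 0.33, but the third pair is the second product, so the numbers are not known to pair samples. The second product alone has 1 sample a day and allowed no test. The median of the FGF list (-0.59) was -0.71 with median centring, -0.70 with the authors' column, 0.19 with no filter, -0.86 with the analysis day, -0.84 and -0.74 on the first and second product alone, -0.51 without 7-day replicate 2 and with the filter applied again, and between -0.86 and -0.52 with 1 sample left out. The glycolysis median (0.52) was 0.28, 0.29 and 0.29 with median centring, the authors' column and the second product alone, and between 0.34 and 0.60 with 1 sample left out. The fibroblast median was 0.74 on the second product. Pou5f1 turned to -0.29 with median centring, -0.28 with the authors' column, -0.18 on the second product and -0.35 without 7-day replicate 2 and with the filter applied again, and lay between -0.35 and 0.30 with 1 sample left out. Zfp42 was -0.88 on the second product, -0.33 without 7-day replicate 2 and with the filter applied again, and between -0.33 and 0.99 with 1 sample left out. Gata4 was 0.029, 0.040, 0.42 and 0.17 with median centring, the authors' column, the second product and without 7-day replicate 2 with the filter applied again, and between -0.33 and 0.17 with 1 sample left out. The share of the 178 genes on which 7-day replicate 2 followed replicates 1 and 3, 17.4%, stayed within a fixed tolerance in 7 of 7 alternatives. That tolerance was a ratio to the main value, and no error of the share was computed. Across the 82 named genes tested, 1623 of the recomputed values kept direction and side of the threshold, or direction alone on the second product, which had no test. A further 97 newly passed, 105 no longer passed and 17 changed sign. All 105 belong to the 6 called genes, each of which passed in 3 to 5 of the settings with a test. The other named genes had not passed, so a setting with 0 calls keeps their side by construction.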

Other observations

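Some genes outside the lists, picked by hand after their values were seen and with no test of a group, are given as values. The interferon-inducible GTPase genes Gbp2b and Irgm1 and the immunoproteasome genes Psmb8 and Psmb10 had lower levels at 7 days and did not pass (limma adjusted p = 0.142, 0.143, 0.186 and 0.187, differences of -1.19, -1.23, -1.47 and -1.43 on the log2 scale). Psmb8 had a log2 intensity of 4.34, 4.66 and 8.31 in the 7-day samples, against 6.19, 5.08 and 10.46 in the 3-day samples, and the days did not overlap for it. B2m, another interferon-inducible gene, differed by -0.45 (adjusted p = 0.447). The peripheral myelin gene Pmp22 had 9.18, 4.49 and 12.43 in the 7-day samples, against 3.97, 4.46 and 8.06 in the 3-day samples (3.20 ± 1.02, adjusted p = 0.251). The largest lower difference among the genes tested belonged to the unnamed probe GE110559, at -3.49 ± 0.51 (adjusted p = 0.0817), with no overlap between the days.

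On the second product alone, which carries further probes and 1 sample of each day, Rarb, a retinoic acid receptor and target, had 6.89 in 7-day replicate 3, against 2.77 in 3-day replicate 3, where it was below background. Peg10, an imprinted placental gene, had 10.82 in 7-day replicate 3, against 8.60 in 3-day replicate 3. These differences have no replicate check.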
